A study of Mus musculus with 12 samples.

Results

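The genes described here code for the proteins of the cytosolic ribosome. They were taken from the table of gene names deposited for the YTHDF1 RIP, as protein-coding genes whose symbol is Rpl or Rps followed by a number (with at most a letter and a further number), together with Rpsa, Rplp0, Rplp1 and Rplp2, and were joined by Ensembl identifier to the count table of all libraries. The rule found 80 genes of 55573 in the count table, 48 of the large subunit (Rpl and Rplp) and 32 of the small subunit (Rps and Rpsa). The names table lists 16716 genes that passed a minimum of expression. The genes Rpl3l, Rpl10l and Rpl39l fit the pattern but are not in it, and none had more than 11 counts in any library. All 80 genes passed the filter of the fit, and all 80 had a mean of at least 10 counts in Input and under the YTHDF1 and YTHDF3 antibodies. Under the YTHDF2 antibody 79 did, and Rps27l had a mean of 7.0 counts there.

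The cells were hippocampal neurons prepared from newborn pups of the inbred C57BL/6 strain and kept in culture for 14 days, wild type in every group and with no treatment named in the labels. Per the study's methods, the tissue of a litter was pooled before plating. In RNA immunoprecipitation (RIP), an antibody against an endogenous protein pulls it out of cell lysate and the RNA that comes along is sequenced. Groups were Input (lysate RNA taken without antibody), YTHDF1 RIP, YTHDF2 RIP and YTHDF3 RIP, with 3 replicate libraries each and 12 in all. Per the study's methods, lysate of pooled wells was divided between the antibodies, so the libraries of a replicate are not separate cultures, and p-values measure the spread between these libraries. A RIP with a control antibody was not analysed here, so every value is relative to Input.

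The ribosome joins amino acids into protein. Its small (40S) subunit holds the mRNA and reads the codons, and its large (60S) subunit forms the peptide bond. Each subunit is a core of ribosomal RNA covered by many small proteins, most of which are needed in equal numbers. Their mRNAs are short and among the most abundant of the cell, and many begin with a tract of pyrimidines (the 5′ TOP motif) through which growth signals set their translation together. In neurons these mRNAs are also found in dendrites and axons. The YTHDF proteins are readers in the cytoplasm of N6-methyladenosine (m6A), a methylated adenosine found mostly in longer mRNAs and near stop codons.

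The 5′ ends of a few of these genes show what the starts look like at both ends of the range. RefSeq promoter sequence (GRCm38.p6) was on hand for 60 of the 80 genes, and among these the 4 most depleted and the 4 least depleted in the YTHDF3 RIP are printed, in that order. Each line gives 15 bases before and 15 from the annotated transcription start on, in lower case with the longest run of C and T in capitals.
Rpl39 (chrX:37085208-37085237, minus strand): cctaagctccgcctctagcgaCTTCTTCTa
Rps27 (chr3:90213634-90213663, minus strand): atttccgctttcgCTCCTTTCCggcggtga
Rplp0 (chr5:115559452-115559481, plus strand): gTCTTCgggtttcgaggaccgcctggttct
Rps23 (chr13:90923107-90923136, plus strand): gccttcggctgggcggggCTTCCCgcaatg
Rpl10a (chr17:28328456-28328485, plus strand): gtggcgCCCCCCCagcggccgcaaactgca
Rpl4 (chr9:64173372-64173401, plus strand): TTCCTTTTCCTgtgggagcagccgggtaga
Rpl7l1 (chr17:46782642-46782671, minus strand): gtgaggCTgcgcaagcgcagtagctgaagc
Rpl22l1 (chr3:28805493-28805522, plus strand): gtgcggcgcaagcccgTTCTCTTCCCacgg

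A run of at least 8 pyrimidines, read on the strand of the gene, lay in this window in 27 of the 60 genes (45.0%), beside 13.9% of the 27022 genes with such sequence. For genes with several annotated starts, the start with the longest run was taken in both counts. A C followed by at least 4 pyrimidines stood exactly at the annotated start in 21.7% of the 60 genes and in 2.9% of all. Of the genes printed, Rpl39 and Rps27 among the most depleted and Rpl4 and Rpl22l1 among the least depleted had a run of at least 8, and Rpl7l1 had none longer than 2 bases. The median log2 fold change against Input was -2.28, -1.75 and -3.10 for the YTHDF1, YTHDF2 and YTHDF3 RIP in the genes with a run and -2.82, -2.38 and -3.59 in those without. The genes with a run were thus not the lower of the pair of groups. These are descriptions of letters in a window, and the annotated start can lie some bases away from the one used.

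The ribosomal protein mRNAs were scarcer in all 3 RIPs than in Input. Counts were normalized to CPM (counts scaled to a common library size) with edgeR's TMM scaling, and summed over the 80 genes. The sum was 7992, 8949 and 11628 CPM in the 3 Input libraries, for a mean of 9523 ± 1885 (SD, n = 3). It was 1319, 3286 and 830.2 CPM in the YTHDF1 RIP, with a mean of 1812 ± 1300 (SD, n = 3). In the YTHDF2 RIP it was 2386, 3171 and 2081 CPM (mean 2546 ± 562.2, SD, n = 3). In the YTHDF3 RIP it was 1178, 907.7 and 1291 CPM (mean 1125 ± 196.8, SD, n = 3). The lowest single library was YTHDF1 RIP replicate 3. No RIP library reached the lowest Input library. By the means, Input held 5.26 times the sum of the YTHDF1 RIP, 3.74 times that of the YTHDF2 RIP and 8.46 times that of the YTHDF3 RIP. Without YTHDF1 RIP replicate 2, a step chosen after the data were seen, the YTHDF1 mean was 1075 CPM and Input held 8.86 times as much, so the order of the YTHDF1 and YTHDF3 RIP rests on that library.

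A pair of libraries stood apart and touch the results that follow. YTHDF1 RIP replicate 2 had the highest CPM of its group for 79 of the 80 genes, and Input replicate 3 for 79 of the 80 in Input. YTHDF2 RIP replicate 2 was the highest of its group for 71. Total counts ran from 6020072 to 38909592 per library, and the members held 11444 counts in the library with the fewest and 122239 in that with the most. Total counts give the counting error only.

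Of the cell type markers, the 9 genes for neurons (such as Map2 and Snap25) summed to between 2806 and 4494 CPM in Input, and the 7 for astrocytes to between 1032 and 3454. All 7 astrocyte genes were among the genes tested, as were 6 of 8 for the oligodendrocyte lineage, 4 of 4 for fibroblasts, 1 of 6 for microglia and none of those for endothelial (3) or red blood (2) cells. The neuronal sum was 4541 to 7462 CPM for YTHDF1, 1886 to 2981 for YTHDF2 and 3147 to 6202 for YTHDF3. The astrocyte sum was 1190 to 2893, 1721 to 2418 and 1207 to 2603 CPM, within the range of Input. The oligodendrocyte lineage genes summed to 56.4 to 389 CPM in Input, with 324 to 1390 CPM for the YTHDF1 RIP, 366 to 471 for the YTHDF2 RIP and 55.8 to 520 for the YTHDF3 RIP, and the fibroblast genes stayed at or under 110.5 CPM in every library. In the bulk Input libraries fewer cells of a type and less RNA per cell cannot be told apart. Per the study's methods the RIPs and Input of a replicate came from a shared lysate, so a marker sum in a RIP does not measure cell numbers. The part of cell make-up in the results was not tested.

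Each RIP was compared with Input to ask which of these mRNAs were enriched or depleted with each protein. Calls needed the higher group to exceed the lower by at least 25% and an adjusted p (Benjamini-Hochberg, over all 17126 genes tested) no larger than 0.05 in edgeR's quasi-likelihood test. In the YTHDF1 RIP all 80 genes were lower (25.8% of all genes tested were called lower), and in the YTHDF3 RIP all 80 were lower as well (23.0% of all genes). In the YTHDF2 RIP 64 of 80 were lower (19.0% of all genes) and 16 did not pass the test. No ribosomal protein gene was called higher in any RIP by edgeR or DESeq2, and none had a log2 fold change above 0. Moreover, for every one of the 80 genes all 3 libraries of each RIP lay below all 3 Input libraries, which held for 28.0%, 27.5% and 29.1% of all genes tested in the YTHDF1, YTHDF2 and YTHDF3 RIP. The opposite order, with all RIP libraries above all Input libraries, was seen for 0 of the 80 genes and for 27.9%, 25.3% and 26.6% of all genes.

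The median log2 fold change of the 80 genes was -2.47 for YTHDF1 (5.53-fold lower, range -4.38 to -1.04), -2.01 for YTHDF2 (4.03-fold lower, range -4.15 to -0.49) and -3.41 for YTHDF3 (10.6-fold lower, range -5.93 to -1.24). Over all genes tested the medians were 0.02, 0.02 and 0.05. The libraries' own medians against Input were -2.98, -1.62 and -3.80 for the YTHDF1 libraries, -2.21, -1.68 and -2.22 for the YTHDF2 libraries and -3.29, -3.62 and -3.18 for the YTHDF3 libraries. Without YTHDF1 RIP replicate 2 the median of that RIP was -3.46, still with all 80 genes called lower. The 3 comparisons share their Input libraries.

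**Figure D1:**
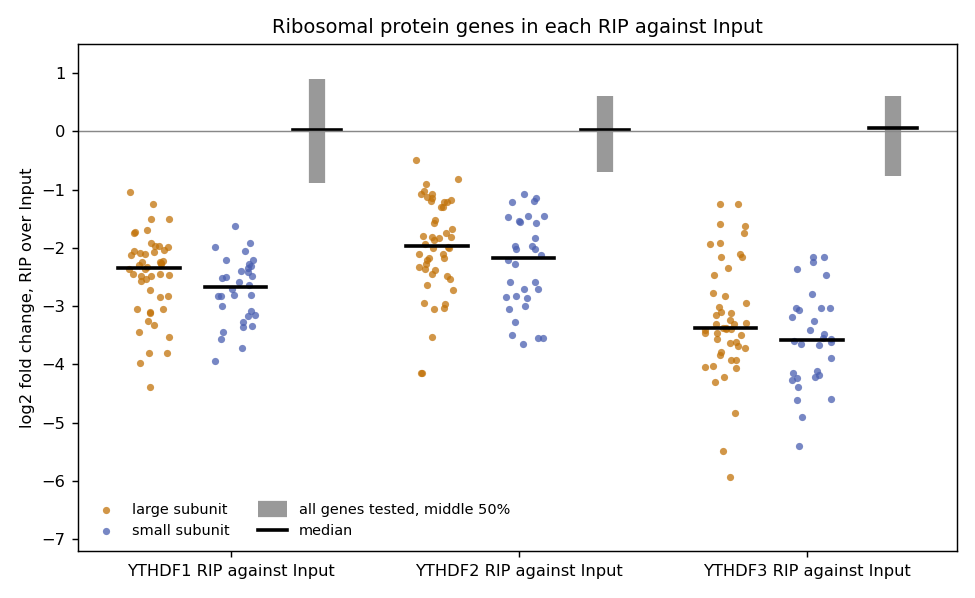
Log2 fold change of each RIP over Input (vertical axis) for the 48 large subunit and 32 small subunit genes, a point per gene, with bars at the median and grey blocks for the middle 50% of all 17126 genes tested. The medians of all ribosomal protein genes were -2.47, -2.01 and -3.41 in the YTHDF1, YTHDF2 and YTHDF3 RIP, and no point lies above 0.

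The 16 genes without a call in the YTHDF2 RIP were 9 of the large subunit and 7 of the small subunit. Their log2 fold changes ran from -1.58 (Rps26, adjusted p = 0.115) to -0.49 (Rpl22, adjusted p = 0.213). Leaving out single libraries moved this count of 64 to between 53 (without YTHDF2 RIP replicate 3) and 78 (without YTHDF1 RIP replicate 2, which enters through the shared estimate of spread). In the YTHDF1 RIP the same step gave 72 to 80 genes and in the YTHDF3 RIP 76 to 80.

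The small subunit genes were somewhat lower than the large subunit genes in each RIP. Medians were -2.34 (large) and -2.67 (small) for YTHDF1, -1.96 and -2.17 for YTHDF2, and -3.37 and -3.57 for YTHDF3. Lower calls in the YTHDF2 RIP covered 39 of 48 large and 25 of 32 small subunit genes. The summed CPM of the large subunit genes divided by that of the small subunit genes was 1.67, 1.65 and 1.69 in Input, with a mean of 1.67 ± 0.021 (SD, n = 3). The same ratio was 1.92, 2.20 and 2.52 for YTHDF1, 2.20, 2.18 and 2.04 for YTHDF2, and 2.21, 2.26 and 2.22 for YTHDF3. All 9 RIP libraries lay above the 3 Input libraries. No test was run on this ratio, because the genes summed were chosen as a set with results in view and the most abundant of them weigh most. By the sums, Input exceeded the RIPs by 4.80, 3.43 and 7.67 times for large subunit genes and by 6.24, 4.41 and 10.2 times for small subunit genes, in the order YTHDF1, YTHDF2, YTHDF3. Between pairs of RIPs the medians of the subunits differed by 0.04 or less on the log2 scale.

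**Figure D2:**
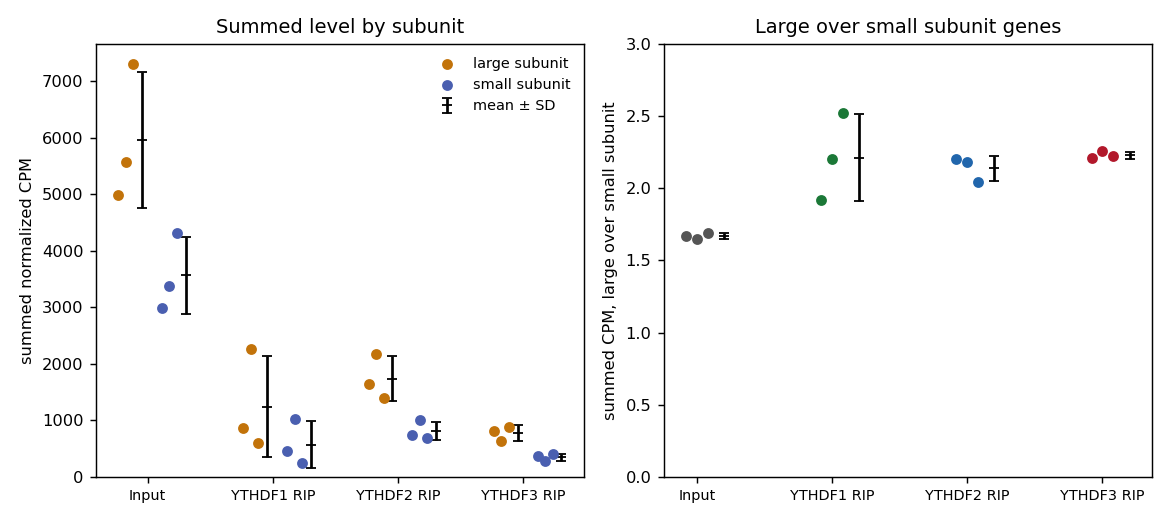
Left, normalized CPM summed over the large and the small subunit genes in each library (points), with the mean ± SD (n = 3) of each group. Right, the ratio of these sums, which was between 1.65 and 1.69 in Input and between 1.92 and 2.52 in the 9 RIP libraries.

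The acidic stalk proteins Rplp0, Rplp1 and Rplp2 sit on the large subunit and call in the elongation factors. Rplp1 (ENSMUSG00000007892, GRCm38 chr9:61913284-61914542, minus strand) was the outlying gene of the set. It read 240.1, 250.2 and 232 CPM in Input. The YTHDF1 libraries held 9.11, 20.7 and 5.11 CPM, the YTHDF2 libraries 12.2, 14.8 and 14.1, and the YTHDF3 libraries 6.26, 2.70 and 2.91. All RIP libraries were far under Input and the YTHDF3 libraries were the lowest. Its log2 fold change was -4.38 ± 0.49 (SE, n = 3 per group) for YTHDF1 (adjusted p = 3.78e-05, edgeR), -4.14 ± 0.49 for YTHDF2 (adjusted p = 0.000294) and -5.93 ± 0.53 for YTHDF3 (adjusted p = 3.23e-05), or 60.9-fold lower there. It lay 3.16 and 3.28 scaled median absolute deviations under the median of the 80 genes in the YTHDF1 and YTHDF3 RIP, and no other gene was more than 3 away in any RIP. Per kilobase of mRNA it also had the highest level of the set in Input, 483 CPM per kb beside a median of 116.

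Rplp0, the base of the stalk, read 278, 299 and 326 CPM in Input. The YTHDF1 libraries held 15.1, 36.7 and 12.7 CPM, the YTHDF2 libraries 23.3, 23.6 and 31.3 and the YTHDF3 libraries 13.4, 7.74 and 10.6. No library of a RIP came near the Input values, and its fold changes (-3.81, -3.53 and -4.83) were among the lowest 6 of the set in all 3 RIPs. Rplp2, the partner of Rplp1, was less depleted, at -2.25 ± 0.49, -1.93 ± 0.48 and -3.15 ± 0.51 (SE, n = 3 per group).

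Several other genes lay near the low end, many of them for very small proteins. Rpl39, a very small protein of the exit tunnel, read 39.2, 43.0 and 57.0 CPM in Input. Under the YTHDF1 antibody it read 3.23, 5.49 and 1.38 CPM, the YTHDF2 libraries 2.13, 3.28 and 2.46 and the YTHDF3 libraries 1.48, 0.703 and 0.926. The groups did not overlap with Input, and the log2 fold changes were -3.81, -4.15 and -5.48. Rps29, a zinc-binding protein of the small subunit, read 45.0, 49.6 and 62.5 CPM in Input. Its YTHDF3 libraries held 1.56, 1.30 and 0.860 CPM, a log2 fold change of -5.40 ± 0.51 (SE, n = 3 per group, adjusted p = 3.94e-05, edgeR). Its YTHDF1 libraries (4.38, 7.63 and 1.45 CPM) and YTHDF2 libraries (4.65, 4.33 and 4.47) overlapped. Rps27, another zinc-binding protein, had -3.45, -3.27 and -4.91, and Rps21 had -3.94, -3.65 and -4.60. Rpl34 was second in the YTHDF1 RIP at -3.97 and lay at -2.95 and -4.30 in the other two.

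Rpsa, which is both a protein of the small subunit and the precursor of a laminin receptor, had the highest mean CPM of the set in Input, without regard to length. It read 526, 549 and 627 CPM there. With YTHDF1 it read 45.9, 89.0 and 33.4 CPM, the YTHDF2 libraries 43.9, 46.9 and 56.1 and the YTHDF3 libraries 35.9, 23.0 and 29.4. The groups stood well apart from Input. Its log2 fold changes were -3.34 ± 0.34, -3.54 ± 0.34 and -4.27 ± 0.35 (SE, n = 3 per group). Rps6, the small subunit protein that S6 kinase phosphorylates, had -1.98, -1.20 and -2.16, and its value in the YTHDF2 RIP did not pass the test (adjusted p = 0.0654, edgeR). Rps27a, made as a fusion with ubiquitin, was called lower in all 3 RIPs at -2.39, -1.83 and -3.03, as was the X-linked Rps4x at -2.71, -2.71 and -3.62.

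**Figure D3:**
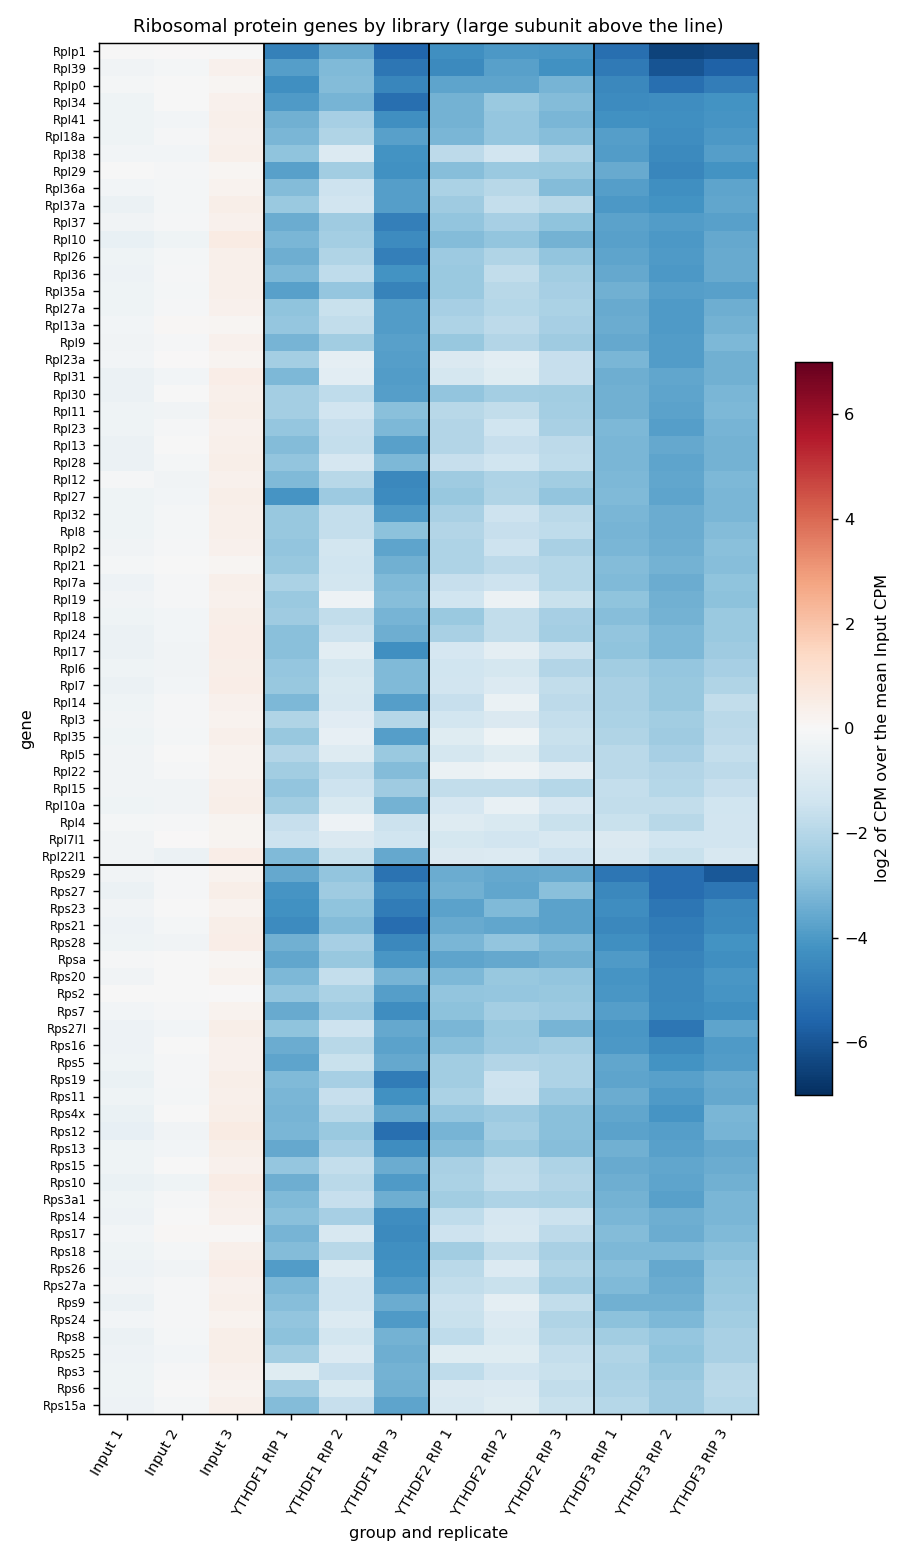
Log2 of each library's normalized CPM over the gene's mean Input CPM (colour) for the 80 genes (rows, large subunit above the line, ordered by the YTHDF3 RIP) in the 12 libraries (columns). Every RIP cell is below 0 (blue), from Rplp1 down to Rpl22l1 and from Rps29 down to Rps15a, and YTHDF1 RIP replicate 2 is paler than its group for 79 of 80 genes.

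The least depleted genes were mostly of the large subunit. Rpl4, a protein with a long extension into the subunit core, read 226, 240.4 and 285 CPM in Input. The YTHDF1 libraries held 81.5, 196 and 87.3 CPM, the YTHDF2 libraries 134, 121 and 86.5 and the YTHDF3 libraries 85.2, 65.9 and 99.0. YTHDF1 RIP replicate 2 was the library nearest to Input, though still under it. Its log2 fold changes were -1.04 ± 0.32, -1.14 ± 0.32 and -1.59 ± 0.33 (SE, n = 3 per group), all called lower. Rpl3, of the core near the peptidyl transferase centre, had -1.50, -1.30 and -2.16. Rpl15 had -2.10, -1.79 and -1.74, and was the single gene of the set with a negative difference between the YTHDF2 and YTHDF3 RIP (-0.05, adjusted p = 0.947, edgeR). Rpl10a had -1.98, -0.91 and -1.62, and its YTHDF2 value did not pass the test (adjusted p = 0.139, edgeR). In the YTHDF2 RIP the genes nearest to Input besides Rpl22 and Rpl10a were Rpl35 (-0.81, adjusted p = 0.345), Rpl19 (-1.03, adjusted p = 0.187) and Rps25 (-1.08, adjusted p = 0.122), none of them called. Rpl19 read 82.8, 163 and 72.5 CPM in the YTHDF2 libraries beside 181, 204 and 266 in Input, so that replicate 2 alone came close to Input. In the YTHDF1 and YTHDF3 RIP these 3 were called lower, at -1.73 and -2.10 (Rpl35), -1.50 and -3.01 (Rpl19), and -1.91 and -2.37 (Rps25).

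Rpl7l1, a relative of Rpl7 that acts in ribosome assembly, was depleted to nearly the same extent in each RIP. It read 21.2, 25.6 and 29.2 CPM in Input. The libraries of the YTHDF1 RIP held 9.45, 12.6 and 9.75 CPM, the YTHDF2 libraries 10.9, 10.2 and 11.8 and the YTHDF3 libraries 12.4, 9.48 and 10.2. The 9 RIP libraries overlapped and none reached Input, with log2 fold changes of -1.25 ± 0.19, -1.21 ± 0.20 and -1.25 ± 0.19 (SE, n = 3 per group). Rpl7 itself had -1.97, -1.29 and -2.34, and with the replicate block its YTHDF2 value was -1.33 with an adjusted p of 0.0503 (edgeR), no longer called. Of the other paralogs, Rps27l stood at -2.34, -2.99 and -4.15 beside -3.45, -3.27 and -4.91 for Rps27, from as few as 6 counts per library in the YTHDF2 and YTHDF3 RIP. Rpl10 had -3.11, -3.03 and -3.78, and its paralog Rpl10l was at most 1 count in any library.

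Rpl22 and its paralog Rpl22l1, which replace each other in the large subunit to some extent, showed different patterns over the RIPs. Rpl22 read 86.8, 96.8 and 119.6 CPM in Input. The YTHDF1 libraries held 18.4, 32.4 and 12.3 CPM, the YTHDF2 libraries 73.3, 81.2 and 61.5 and the YTHDF3 libraries 27.3, 24.4 and 28.9. The YTHDF2 libraries lay just under the lowest Input library and above every library of the other two RIPs. Against Input the log2 fold changes were -2.27 ± 0.30 and -1.91 ± 0.30 in the YTHDF1 and YTHDF3 RIP, and -0.49 ± 0.29 (SE, n = 3 per group, adjusted p = 0.213, edgeR) in the YTHDF2 RIP. Rpl22l1 read 6.62, 5.93 and 11.0 CPM in Input. Its YTHDF1 libraries held 0.922, 2.64 and 0.653 CPM, its YTHDF2 libraries 3.86, 4.03 and 2.91 and its YTHDF3 libraries 3.62, 2.67 and 3.64. Here the YTHDF1 libraries were the lowest, though the highest of them (2.64) lay just under the lowest YTHDF3 library (2.67). Those of YTHDF2 and YTHDF3 overlapped, and the fold changes were -2.49, -1.13 (adjusted p = 0.0734, edgeR, not called) and -1.24. Rpl22l1 had the fewest counts of the set in the YTHDF1 RIP, with a mean of 21.0 and as few as 8. With the replicate number as a block, the YTHDF3 value of Rpl22l1 was -1.24 with an adjusted p of 0.0591, so its call was lost and 79 of 80 genes were called lower in the YTHDF3 RIP.

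**Figure D4:**
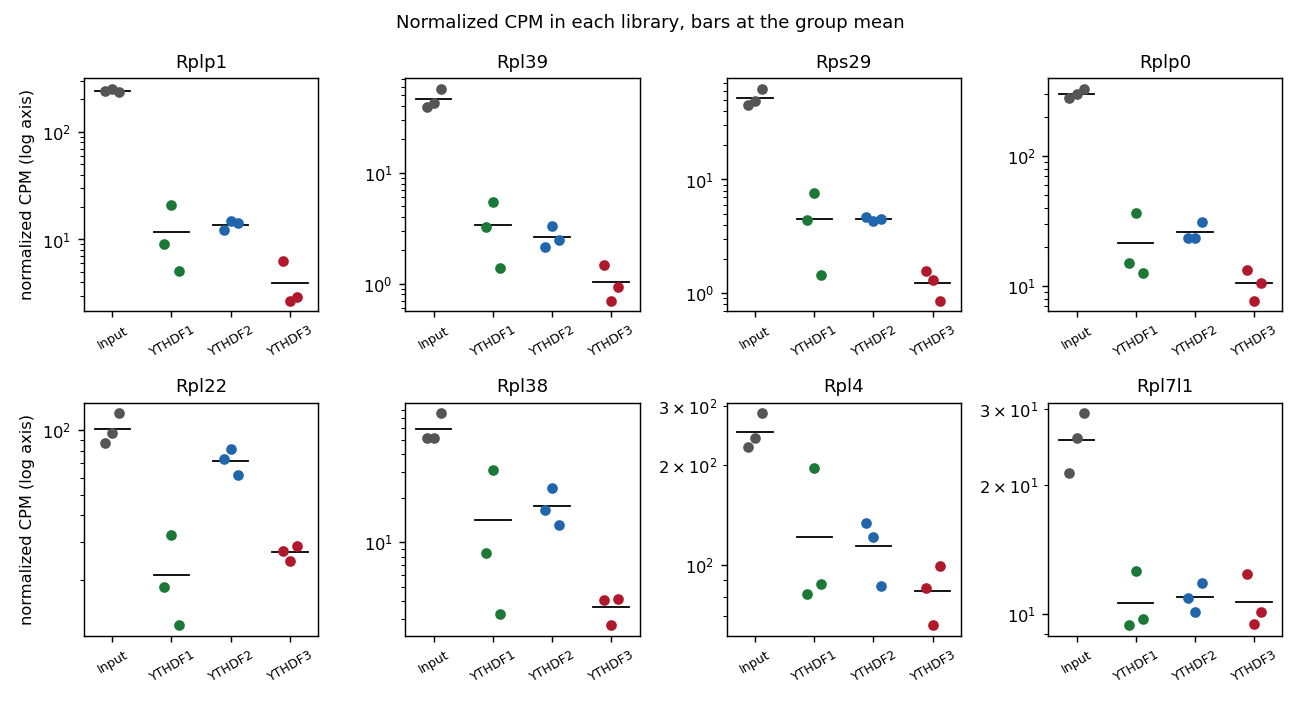
Normalized CPM (log axis, scaled per gene) of 8 ribosomal protein genes in the 3 libraries of each group, with bars at the group mean. All RIP libraries lie under Input for each gene, the YTHDF2 libraries of Rpl22 (61.5 to 81.2 CPM) lie above those of the other RIPs, and those of Rpl7l1 overlap across the RIPs.

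The RIPs were then compared with each other, to ask whether the proteins differed in these mRNAs. A difference was called at 2-fold or more and an adjusted p of at most 0.05. In the YTHDF1 RIP against the YTHDF2 RIP, 4 genes were lower (6.1% of all genes tested were called lower). By edgeR or DESeq2 0 were higher, also at an unadjusted p under 0.05, beside 11.4% of all genes called higher by edgeR. The 4 were Rpl22 (-1.78 ± 0.30, adjusted p = 0.00122), Rps14 (-1.54 ± 0.40, adjusted p = 0.0140), Rps15a (-1.35 ± 0.44, adjusted p = 0.0413) and Rpl35a (-1.26), by edgeR with n = 3 per group. The median of the 80 genes was -0.46 beside 0.03 for all genes. For 5 of the 80 genes every YTHDF1 library lay below every YTHDF2 library and for 0 above (16.2% and 20.4% of all genes). The count rested on YTHDF1 RIP replicate 2, since 58 genes were lower without it, with a median of -1.27 beside -0.06 for all genes. It was 2 without Input replicate 2, YTHDF1 RIP replicate 1 or 3, YTHDF2 RIP replicate 1 or YTHDF3 RIP replicate 2 or 3, and 1 without YTHDF2 RIP replicate 2. With the replicate block the count was 4, and with the 2 groups fitted alone and the block it was 15. Rpl22 was called lower in all 24 alternatives, with log2 fold changes between -2.28 and -1.50, and Rps14 in 23 of 24. Rps14, a protein of the small subunit's platform, resembled Rpl22 in that its YTHDF2 value against Input (-1.46) lay above those of YTHDF1 (-3.00) and YTHDF3 (-3.26), and Rps15a had -2.51, -1.15 and -2.15.

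In the YTHDF1 RIP against the YTHDF3 RIP, 12 genes were higher (10.8% of all genes) and 0 lower (3.63% of all genes) by edgeR, with 1 gene lower at an unadjusted p under 0.05 and 1 called lower by DESeq2. The largest differences were Rpl38 (1.97 ± 0.62, adjusted p = 0.0417), Rps29 (1.83 ± 0.47, adjusted p = 0.0169) and Rps27l (1.80 ± 0.55, adjusted p = 0.0348), by edgeR with n = 3 per group. The median was 0.82 beside 0.19 for all genes, and for 10 of the 80 genes every YTHDF1 library lay above every YTHDF3 library, with 1 gene in the opposite order (20.9% and 12.2% of all genes). With the replicate block 5 genes were higher, and Rpl38 (1.66, adjusted p = 0.103, edgeR) and Rps27l (1.71, adjusted p = 0.0727) were no longer called. The direction of the median depended on a single library, and the number of calls also on the scaling. With library size alone the median was 0.06, that of all genes was -0.54, and no gene was called higher. The median of the 80 genes less that of all genes was 0.60 there, beside 0.63 in the main fit. Without YTHDF1 RIP replicate 2 the median was -0.10, with 0 genes higher and 5 lower, and without YTHDF1 RIP replicate 3 there were 39 higher. The number called higher was also 7 or less without Input replicate 2 or 3, without YTHDF2 RIP replicate 3 and without any single library of the YTHDF3 RIP. Rpl38 showed this, at 8.42, 31.2 and 3.26 CPM for YTHDF1 against 4.04, 2.74 and 4.10 for YTHDF3. Its lowest YTHDF1 library lay among the YTHDF3 libraries, and without YTHDF1 RIP replicate 2 the difference was 0.51 (adjusted p = 0.399, edgeR).

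In the YTHDF2 RIP against the YTHDF3 RIP, 19 genes were higher (3.95% of all genes) and 0 lower by edgeR or DESeq2 (1.16% of all genes by edgeR), also at an unadjusted p under 0.05. The median was 1.30 beside 0.07 for all genes, and 79 of 80 values were above 0. For 74 of the 80 genes every YTHDF2 library lay above every YTHDF3 library and for 0 below, beside 21.8% and 14.0% of all genes. The largest differences were Rpl23a (2.38 ± 0.61, adjusted p = 0.0371), Rpl38 (2.28 ± 0.63, adjusted p = 0.0480) and Rpl37a (1.94 ± 0.52, adjusted p = 0.0441), by edgeR with n = 3 per group. Rpl23a, which receives nascent chains and the signal recognition particle, held 99.1, 119.4 and 64.9 CPM in the YTHDF2 libraries beside 21.7, 13.4 and 19.4 in the YTHDF3 libraries. The groups did not overlap. With the replicate block 7 genes were higher, and Rpl23a (2.26, adjusted p = 0.0545, edgeR), Rpl38 (2.18, adjusted p = 0.0713) and Rpl37a (1.89, adjusted p = 0.0617) were no longer called. The median stayed between 1.00 and 1.40 in all alternatives, while the number of genes called ran from 0 to 53. It was 0 without YTHDF2 RIP replicate 2 and without YTHDF3 RIP replicate 2 or 3, where 40, 40 and 53 genes remained at an unadjusted p under 0.05. It was 11 or less without any single library of Input, the YTHDF2 RIP or the YTHDF3 RIP, 45 without YTHDF1 RIP replicate 3 and 53 without YTHDF1 RIP replicate 2. Of the 80 genes, 29 differed among the RIPs in the joint test (32.3% of all genes did). With the replicate block 16 did, and the share of all genes is not given for that fit.

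Sequence features of the mRNAs were taken from GENCODE M21, which has the genome build of the files. For each gene the longest of its principal protein-coding transcripts was used, or the longest protein-coding one where none was principal. Which transcript these cells make was not tested, so a length can be that of a long annotated form. The ribosomal protein mRNAs were short, with a median of 882 bases (345 to 5179) beside 3152 for the 13418 protein-coding genes tested. The 80 genes are among those 13418. Their 3′ untranslated regions had a median of 86.5 bases beside 1075 for the 13418. Among the 80 genes longer mRNAs were less depleted, with Spearman correlations of log2 fold change and length of 0.41, 0.33 and 0.45 for the YTHDF1, YTHDF2 and YTHDF3 RIP. These run across genes that share libraries and are given as a description. The correlation with the length of the 3′ untranslated region was 0.16, 0.01 and 0.05, and with the mean Input CPM 0.16, 0.12 and 0.13. The shortest mRNA was that of Rps27 at 345 bases, the longest that of Rps15a at 5179, and Rpl7l1 had 2606 and Rpl22 2051.

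The length of the mRNA therefore moved with depletion. Each fit was repeated after each library's trend with another length, the total exonic length of a gene, had been taken out. Among the 80 genes exonic length correlated with log2 fold change at 0.17, 0.22 and 0.38 (Spearman; YTHDF1, YTHDF2 and YTHDF3 RIP). A trend with mRNA length itself was not taken out. The medians were then -2.07, -1.68 and -2.81 in the YTHDF1, YTHDF2 and YTHDF3 RIP. The genes called lower numbered 72, 62 and 77, beside 23.2%, 16.5% and 17.8% of all genes. Rpl4 was no longer called in the YTHDF1 RIP (-0.60, adjusted p = 0.119, edgeR) or the YTHDF2 RIP (-0.83, adjusted p = 0.0532), nor Rpl22l1 in the YTHDF3 RIP (-0.71, adjusted p = 0.201). Among the other genes named here, Rpl35 lost its call for both YTHDF1 and YTHDF3 (-1.11, adjusted p = 0.117, and -1.16, adjusted p = 0.126, edgeR). Rpl19 (-0.74, adjusted p = 0.204) and Rpl23a (-0.86, adjusted p = 0.136) lost theirs in the YTHDF1 RIP. Rpl38 lost its call for YTHDF1 (-0.95, adjusted p = 0.0784) and YTHDF2 (-0.62, adjusted p = 0.273), and Rpl7 for YTHDF2 (-1.12, adjusted p = 0.0778), while Rps15a gained one for YTHDF2 (-1.39, adjusted p = 0.0388). The remaining part of length in these values was not tested.

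The letters GGAC, the core of a common m6A context, were counted on the mRNA strand alone. They occurred a median of 3 times per mRNA in the ribosomal protein genes and 13 in all protein-coding genes tested, or 3.61 and 4.17 times per kb. They were absent from 3 of the 80 mRNAs, namely those of Rplp1, Rps27l and Rpl19, and from 0.529% of all protein-coding genes tested. Medians in the YTHDF3 RIP were -3.54 for the 13 genes with 0 or 1, -3.49 for the 30 with 2 or 3 and -3.37 for the 37 with 4 or more. In the YTHDF1 RIP they were -2.44, -2.48 and -2.45, and for YTHDF2 -2.33, -2.10 and -1.86, so the spread of these medians was largest in the YTHDF2 RIP. No test was run on it. A match is no evidence of methylation, which was not measured here.

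**Figure D5:**
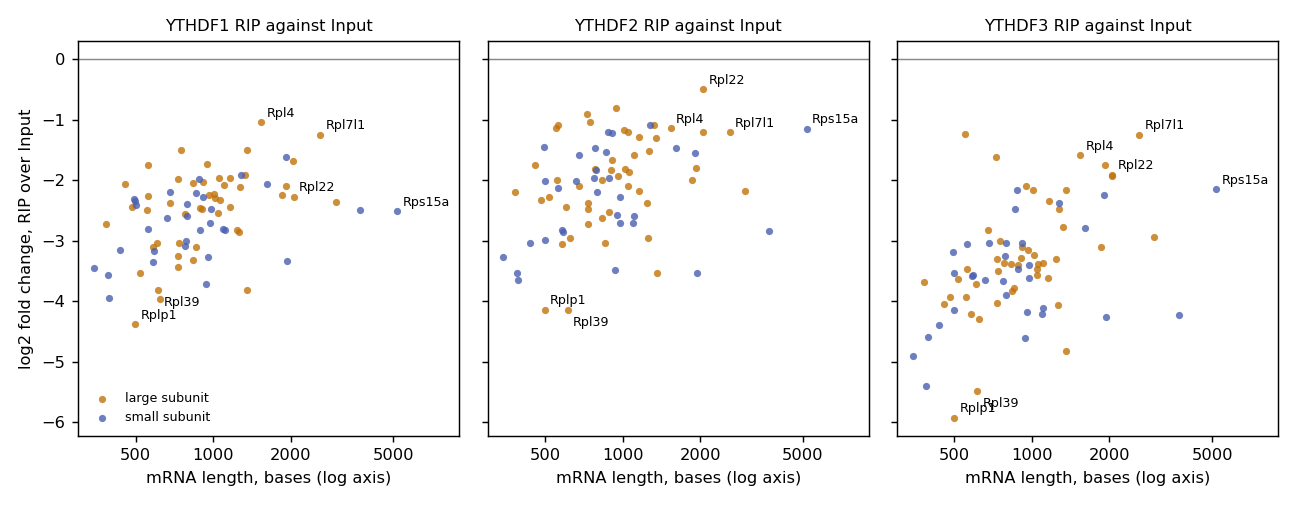
Log2 fold change of each RIP over Input against mRNA length (log axis) for the 80 genes, coloured by subunit. Rplp1 (499 bases) and Rpl39 (612) lie lowest in the YTHDF3 panel, Rpl7l1 lies high at 2606, and the Spearman correlations were 0.41, 0.33 and 0.45.

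Other genes of translation were read beside these. A list of 26 mRNAs held translation factors, 5′ TOP genes and relatives outside the set. Of these, 15, 16 and 18 were lower and 1, 0 and 1 higher in the YTHDF1, YTHDF2 and YTHDF3 RIP. Among all genes tested 25.8%, 19.0% and 23.0% were lower and 27.2%, 15.7% and 16.4% higher. The medians of the list were -1.25, -1.35 and -1.71. Tpt1, a growth-related TOP mRNA, was the lowest in each RIP at -3.24, -2.95 and -4.41. Rack1, a scaffold on the small subunit, followed at -2.57 and -2.04 in the YTHDF1 and YTHDF2 RIP, and Fau, a fusion that holds a small subunit protein, at -3.29 in the YTHDF3 RIP. At the other end, Eif3a, the large scaffold of initiation factor 3, was higher in the YTHDF1 and YTHDF3 RIP (1.53 and 0.85) and not called in the YTHDF2 RIP (0.28, adjusted p = 0.341, edgeR). Eif4b, which helps the helicase of initiation, had 0.21 for YTHDF1, and Gas5, a snoRNA host with a TOP start, 0.24 for YTHDF3, both short of the test. In the YTHDF2 RIP the highest after Eif3a was Eif4a2 (0.27).

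Over all genes tested, 27.2%, 15.7% and 16.4% were called higher in the YTHDF1, YTHDF2 and YTHDF3 RIP, and 25.8%, 19.0% and 23.0% lower. Of 7 regulators of TOP mRNAs and related RNA-binding proteins, 4, 2 and 3 were higher and 1, 2 and 2 lower, with medians of 0.82, -0.11 and 0.76. Larp1, which binds the TOP motif and the cap, was higher in all 3 RIPs at 1.54, 0.76 and 1.09, and Cnbp, a small zinc-finger protein that binds TOP mRNAs, was lower in all 3 at -2.40, -0.84 and -1.71. Tial1 and Larp4 were the highest in the YTHDF1 RIP at 3.42 and 2.54, where Tia1 was not called (-0.49, adjusted p = 0.152, edgeR). Ssb, the La protein, was lower in the YTHDF2 and YTHDF3 RIP (-0.75 and -0.54). Tia1 was the highest in the YTHDF2 and YTHDF3 RIP at 0.94 and 1.17. Of 26 genes of ribosome assembly and rRNA synthesis, 12, 7 and 5 were higher and 6, 5 and 6 lower, with medians of 0.50, 0.07 and -0.26. Nop10 and Nhp2, small proteins of the H/ACA snoRNPs, were the lowest in every RIP (-2.79, -3.16 and -3.74 for Nop10). Nmd3 and Wdr12 were the highest in the YTHDF1 RIP (1.58 and 1.57), and Polr1b, a subunit of RNA polymerase I, and Bms1 in the YTHDF2 RIP (1.11 and 1.07) and the YTHDF3 RIP (1.02 and 1.01).

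The 78 genes tested for proteins of the mitochondrial ribosome, which nuclear genes code for, were read as well. Of these 72, 56 and 69 were lower and 0 higher in the YTHDF1, YTHDF2 and YTHDF3 RIP. Among all genes tested 25.8%, 19.0% and 23.0% were lower and 27.2%, 15.7% and 16.4% higher. The mitochondrial set had medians of -1.48, -1.04 and -1.37, beside -2.47, -2.01 and -3.41 for the cytosolic set. The difference between these sets was not tested.

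Reads could be shared with other genes, because the counting gave a read to every gene and every alignment it matched. Of the 80 genes, 60 have a pseudogene named after them (312 in all, up to 24 for 1 gene) and 27 overlap another gene on their strand, 24 of them with small RNA genes inside their exons. Rpl13a overlaps Gm45713, whose Input counts were 98.5% of those of Rpl13a. Rpl24 and Rps10 overlap Gm28037 and Gm49804, which had 104.7% and 226.4% as many Input counts as they did. How many of these counts came from the same reads was not tested. Among the genes named above, Rpl19 holds a small RNA (Gm27597) with 42.6% as many Input counts. Rps3, which holds Snord15b, was the gene whose highest YTHDF1 library was not replicate 2, at 79.3, 46.1 and 14.5 CPM beside 116 to 176 in Input. With small RNA counts subtracted, its log2 fold change in the YTHDF1 RIP was -2.37 in place of -1.62. With the 27 overlapping genes left out, a step chosen after the data were seen, 53, 39 and 53 of 53 genes were lower, with medians of -2.48, -2.02 and -3.46.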

How the data were processed

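RNA of 12 libraries was sequenced by the authors. Per the labels and the study's methods, total RNA was made into strand-specific libraries carrying molecular barcodes, trimmed with cutadapt 3.4, aligned to GRCm38 (named mm10 in the submitters' processing notes) with STAR 2.7.7a, deduplicated with UMI-tools 1.1.1 and counted with featureCounts 2.0.1. The deposited counts per gene are raw, with reads given to each overlapping gene and each alignment. The authors' tables of log2 fold changes, mean counts and p-values from DESeq2 were not used, apart from the gene names and types that define the set.

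Genes with a mean of at least 10 normalized counts (17126) were fitted with edgeR 4.0.16 in R 4.3.3 (quasi-likelihood F test, TMM factors, 4 groups, no block). The SE is the log2 fold change divided by the square root of F. Fits were tested on simulated data. The biological coefficient of variation was 0.323. An exact test of 3 against 3 cannot go below p = 0.1, so single values carry only the fit's p.

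The members, the lists and the rules were chosen with earlier results of these data known. Named were, per RIP, the 5 lowest and 5 highest members, those over 3 scaled median absolute deviations out, fixed stalk genes and paralogs, and the 3 largest called differences per pair of RIPs, with the 2 highest and 2 lowest of each other list. The study's methods state a lysate shared by the 4 libraries of a replicate. Deviations of same-numbered libraries correlated for YTHDF3 RIP with Input (0.829, 0.528 and 0.804) and in part for YTHDF1 with YTHDF2 RIP (0.059, 0.544 and 0.348). They did not throughout for YTHDF1 (0.0907, -0.267 and -0.322) or YTHDF2 RIP with Input (0.178, -0.323 and -0.313), nor for YTHDF1 (0.107, -0.340 and -0.348) or YTHDF2 with YTHDF3 RIP (0.170, -0.320 and -0.347). The highest correlation with a library of another number was 0.171, 0.467 and 0.223 for YTHDF1 RIP with Input. It was 0.206, 0.560 and 0.195 for YTHDF2 RIP with Input. With YTHDF3 RIP it was 0.021, 0.426 and 0.366 for YTHDF1, and 0.141, 0.555 and 0.218 for YTHDF2. The larger value over the other numbers was taken, so these lean high. The block follows the replicate number, and whether it pairs shared lysates for YTHDF1 and YTHDF2 was not tested. Blocked values stand beside each call they change. Alternatives were DESeq2 1.42.0, other size factors, no filter or a minimum of 50, the block and pairs of groups alone. Others were removal of the trend with exonic length (loess, span 0.3), subtraction of small RNA counts and leaving out each library.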

Additional observations from a re-analysis of the deposited data

Results flagged for a closer look

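The number of ribosomal protein genes that differed by 2-fold or more between RIPs was 4 for YTHDF1 against YTHDF2, 12 for YTHDF1 against YTHDF3 and 19 for YTHDF2 against YTHDF3, by the edgeR test of the difference itself. Over all genes tested, 6.1% were called lower in the first, 10.8% higher in the second and 3.95% higher in the third, so the 4 and the 12 were near or below what all genes showed. Without YTHDF1 RIP replicate 2 they were 58 lower, 0 higher and 53 higher. These were singled out because the direct test found a difference between antibodies in the same contrast with Input. Rpl22 (-1.78), Rps14 (-1.54) and Rps15a (-1.35) were the lowest in YTHDF1 against YTHDF2. Rpl38 (1.97), Rps29 (1.83) and Rps27l (1.80) were the highest in YTHDF1 against YTHDF3. Rpl23a (2.38), Rpl38 (2.28) and Rpl37a (1.94) were the highest in YTHDF2 against YTHDF3. Of these 9 differences, that of Rpl22 was called in all 24 alternatives and that of Rps14 in 23, while Rpl38 was called in 7 of 24 against YTHDF3 for YTHDF1 and in 13 of 24 for YTHDF2.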

How the results depend on the processing

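Against Input the ribosomal protein genes kept a negative median in every alternative. It moved by more than the spread between libraries to -1.68 in the YTHDF2 RIP with the length trend removed. In the YTHDF3 RIP it did so to -3.08 with library size alone and to -3.13 without Input replicate 3. There it also moved to -2.81 with the length trend removed, with or without the replicate block. Leaving out any other library gave -3.55 to -3.25 in the YTHDF3 RIP, within that spread. With the overlapping genes left out (chosen after seeing the data), 53, 39 and 53 genes were lower for YTHDF1, YTHDF2 and YTHDF3. The gap of large over small subunit medians moved to 0.46 (YTHDF1) and 0.33 (YTHDF2) with the length trend removed, to 0.35 (YTHDF2) with the block added, to 0.13 (YTHDF2) and 0.12 (YTHDF3) without overlapping genes, and to 0.19 to 0.31 (YTHDF2) on leaving out a library. For YTHDF1 against YTHDF3 it was 0.10 with the replicate block, 0.11 with 2 groups alone and the block, and -0.10 to 0.12 on leaving out a library.

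Counts of differences between RIPs were the least stable. For YTHDF1 against YTHDF2, genes called lower numbered 15 with library size alone, 7 with DESeq2, 8 with no filter, 2 with 2 groups alone, 15 with 2 groups alone and the replicate block, and 1 to 58 on leaving out a library. For YTHDF1 against YTHDF3, genes called higher numbered 0 with library size alone (3 lower), 5 with TMM over protein-coding genes (1 lower), 20 with DESeq2 (1 lower), 19 with no filter (1 lower), 6 with a minimum mean of 50, 5 with the replicate block, 0 with 2 groups alone with or without the block (10 and 3 at an unadjusted p under 0.05), 5 with the length trend removed and the block, and 0 to 39 (0 to 5 lower) on leaving out a library. With the length trend removed, 1 was lower. For YTHDF2 against YTHDF3, genes called higher numbered 12 with library size alone, 42 with DESeq2, 44 with no filter, 7 with the replicate block, 48 with 2 groups alone, 7 with the length trend removed and the block (median 1.00), and 0 to 53 on leaving out a library. The genes that differed among the RIPs, under alternatives added after seeing the data, numbered 57 with no filter and 16 with the replicate block. They numbered 14 with the length trend removed and the block, and 3 to 70 on leaving out a library. The share of all genes called was not set beside the counts of this paragraph. A change over all genes therefore cannot be told apart here from a change in this set. With the replicate block, 80, 63 and 79 genes were lower than Input for YTHDF1, YTHDF2 and YTHDF3, and 4 were lower for YTHDF1 against YTHDF2. The causes were not tested. With 3 libraries a group and 6 counts of Rps27l in the poorest RIP libraries, small differences between RIPs were not detectable.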
